A study of Mus musculus with 6 samples.

Results

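Epithelial cells of the lung were described from single-cell RNA sequencing of cells that had been sorted to leave such cells out. Of 43545 deposited cell barcodes, 38208 passed the quality limits, which were at least 500 genes and at most 10% mitochondrial UMIs, and 159 of these were taken as epithelial. A unique molecular identifier (UMI) tags a captured RNA molecule, so UMIs count molecules. The cells were chosen by marker detection alone. An epithelial cell had at least 1 UMI of at least 3 of 6 epithelial markers (*Epcam*, *Cdh1*, *Cldn18*, *Nkx2-1*, *Ager*, *Lamp3*), at most 2 of the endothelial markers *Pecam1*, *Cdh5*, *Cldn5*, *Tie1*, and *Egfl7*, and at most 2 of the mesothelial markers *Msln*, *Upk3b*, *Wt1*, and *Lrrn4*. There were 113 epithelial cells in WT and 46 in TNF-Tg libraries.

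The study asked how endothelial and mesenchymal cells of the lung change and signal to each other in TNF-Tg mice. It left epithelial cells out of its analysis. TNF-Tg mice carry a TNF transgene, develop inflammatory arthritis, and are used as a model of pulmonary hypertension. The 6 libraries were 1 from WT littermates and 1 from TNF-Tg mice at each of 3 ages (8, 14, or 20 weeks), and every library pooled lungs from several females. Because each pairing of genotype and age had a single library, the 3 ages served as replicates of a genotype, and a p-value measures the spread between these libraries only. Transgene RNA had no row of its own in the gene list. Sorted cells were viable (7-AAD-), CD45-, and CD326-. CD326 is the protein of *Epcam*, so the cells described here had escaped a gate set against them, and their number says nothing of how many epithelial cells the lungs held.

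The alveolar surface is lined by 2 epithelial types. Type I (AT1) cells are thin and wide, cover most of the gas exchange surface, share a basement membrane with capillaries, and are a source of VEGF-A for the endothelium. Type II (AT2) cells are cuboidal, make surfactant, and can give rise to AT1 cells after injury, passing through a transitional state. The airways are lined by club and ciliated cells. TNF acts on epithelium through its receptors and the transcription factor NF-kB.

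Library totals ranged from 33680696 to 39839916 UMIs in WT and from 64475410 to 72655387 in TNF-Tg mice, so depth moved with genotype. The median of passing barcodes was 4455 to 4766 UMIs in WT and 9179 to 9808 in TNF-Tg libraries. Epithelial cells did not show this gap. Their median was 9246, 10029, and 11488.5 UMIs in WT and 8399, 14305, and 8583 in TNF-Tg libraries at 8, 14, and 20 weeks. The ratio of the epithelial median to that of all passing barcodes was 2.24 ± 0.302 (SD, n = 3) in WT and 1.09 ± 0.332 (n = 3) in TNF-Tg libraries, with no overlap (difference −1.16, 2-sided exact permutation p = 0.1, the smallest that 3 against 3 libraries allow). The part of this depth gap in the results below was not tested.

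The marker values that chose the cells are given as a description. *Cldn18*, a tight junction gene of alveolar cells, and *Ager*, the receptor for advanced glycation end products and a marker of AT1 cells, were each found in 156 of the 159 cells (98.1%). *Cdh1* (E-cadherin) was found in 146 cells, *Nkx2-1*, the transcription factor of lung epithelium, in 145, and *Lamp3*, a lamellar body gene of AT2 cells, in 13. *Epcam* was found in 116 cells (73.0%), although its protein had been used to sort such cells out. All 13 cells with *Lamp3* also had *Ager*, and 3 cells had neither. The rule was met with 3 markers by 15 cells (median 1932 UMIs), with 4 by 41, with 5 by 95, and with all 6 by 8. Just outside it lay 23 barcodes with 2 epithelial markers (median 3971 UMIs) and 15 barcodes with enough epithelial markers but 3 or more endothelial ones. Among the cells taken, 84 had no endothelial marker, 52 had 1, and 23 had 2.

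Few epithelial cells held several immune or mesenchymal markers. No cell had 3 or more of 8 immune markers and 1 had 3 or more of 8 mesenchymal markers, while 5 cells, all of WT, were called doublets by Scrublet. Summed levels were not low. Per 1000000 UMIs, immune markers ranged from 211 to 15066 over the epithelial sums of the libraries. They exceeded the level of all passing barcodes except in the TNF-Tg library of 20 weeks (433 against 1670). In that of 14 weeks, *Lyz2* in cells named AT2-like below gave 3770 of the 3794 immune UMIs. Erythroid genes reached 32065 in the WT library of 8 weeks. Free RNA was gauged with *Sftpc*, the surfactant gene of AT2 cells, and *Scgb1a1*, the secretoglobin of club cells. *Sftpc* had a UMI in 1.56% and *Scgb1a1* in 16.1% of the 706 mesothelial barcodes (median 17017.5 UMIs), which should make neither. *Sftpc* was found in 26 epithelial cells (16.4%) and *Scgb1a1* in 34 (21.4%), at a median of 10256 UMIs, and the latter share is not read as expression. No epithelial barcode was shared between the epithelial cells of 2 libraries, and 1 was also listed as another cell in another library.

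The 20 genes that led the epithelial cells over the other passing barcodes were those of AT1 cells. *Ager* had a mean of 18109 CPM (counts scaled to a common total) in the epithelial cells and of 15.7 in the others. It was followed by *Cldn18*, *Aqp5* (a water channel of AT1 cells), *Igfbp2*, *Sec14l3*, *Col4a3* (a collagen of the alveolar basement membrane), *Ndnf*, *Rtkn2*, *Gprc5a*, and *Akap5*. Most of these genes were not part of the rule, and they too mark lung epithelium, mainly of the AT1 kind.

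Clustering on 35 lineage markers gave 5 clusters. Clusters 1 to 4 were led by AT1 genes and are called AT1-like. They held 24, 49, 33, and 40 cells, 146 in all. Cluster 5 held 13 cells, was led by *Sftpc*, *Sftpa1*, *Sftpb*, *Sftpd*, *Cxcl15*, and *Slc34a2*, and is called AT2-like. Its median depth was 22420 UMIs. In order of age, the WT libraries held 33, 33, and 43 AT1-like cells and the TNF-Tg libraries 6, 10, and 21. The corresponding numbers of AT2-like cells were 1, 2, and 1 against 0, 8, and 1. Of the 9 AT2-like cells of TNF-Tg mice, 8 thus came from a single library.

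A few cells carried the markers of airway types. An AT1-like cell of the TNF-Tg library of 14 weeks and another of 20 weeks had no *Ager* UMI, and each had all 10 of the ciliated markers, with 6 and 5 of 14 AT1 markers. The latter had 67933 UMIs, 25.3% of all AT1-like UMIs of its library, and also held 37 UMIs each of the cell cycle genes *Top2a* and *Cdk1*. The former had 10256 UMIs, 8.69% of those of its library. Of the ciliated markers, *Sec14l3* and *Tppp3* do not separate the types, being found in 97.9% and 93.2% of AT1-like cells. The cell of 20 weeks had 0 UMIs of the AT1 marker *Hopx*. Both cells go against the AT1-like name by their markers but stay in its counts and shares. The remaining cell with airway markers was the AT2-like cell of the WT library of 20 weeks, in which *Scgb1a1* made up 11105 UMIs and *Sftpc* and *Lamp3* were at 0. Over all passing barcodes, 5 had at least 4 of 7 ciliated markers, all in TNF-Tg libraries (4 at 14 weeks and 1 at 20), and 17 had at least 3 of 5 club markers, of which 7 were in WT and 10 in TNF-Tg libraries.

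Cells that met the marker rule made up a smaller share of the TNF-Tg than of the WT libraries. The rule and the names here were built anew, so cells named in another way may number differently. The share of passing barcodes was 0.529% (exact Clopper-Pearson 95% interval 0.366 to 0.738) in WT at 8 weeks, 0.578% (0.403 to 0.804) at 14 weeks, and 0.632% (0.460 to 0.848) at 20 weeks. In TNF-Tg libraries it was 0.0909% (0.0333 to 0.198), 0.309% (0.183 to 0.489), and 0.347% (0.217 to 0.524). Every TNF-Tg share lay below every WT share, and at 8 weeks the intervals did not overlap. The means were 0.580% ± 0.0517 (SD, n = 3) and 0.249% ± 0.138 (n = 3), a difference of −0.331 percentage points (2-sided exact permutation test, p = 0.1, so that this design cannot reach 0.05). The intervals cover counting error only. The CD326 gate can set these shares, and its part was not tested. With each cell thinned to 2000 UMIs, which left 135 epithelial cells, the difference was −0.311 points. The median mitochondrial share of the epithelial cells was 2.34% ± 0.286 in WT and 3.56% ± 1.13 in TNF-Tg libraries (n = 3 each, exact permutation p = 0.1).

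**Figure D1:**
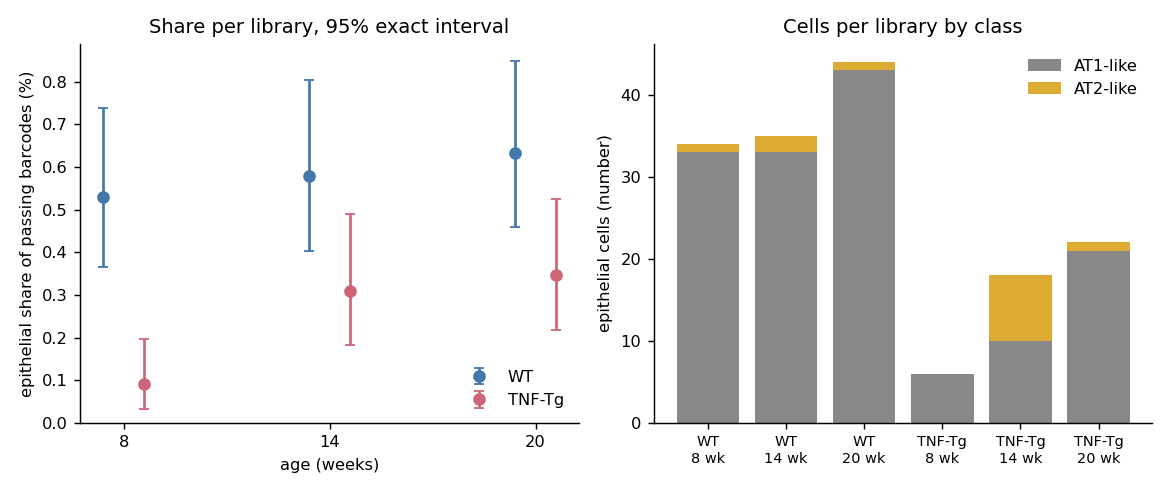
Left, the share of passing barcodes that were epithelial (%) against age in weeks, with points for libraries and bars for exact 95% intervals, WT in blue and TNF-Tg in red. Right, the number of AT1-like (grey) and AT2-like (yellow) cells in each library. The 3 TNF-Tg shares, 0.0909% to 0.347%, lie below the 3 WT shares, 0.529% to 0.632%, and 8 of the 13 AT2-like cells lie in the TNF-Tg library of 14 weeks.

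By this rule the lower share lay in the AT1-like cells. They made up 0.559% ± 0.0535 (SD, n = 3) of passing WT barcodes and 0.198% ± 0.122 (n = 3) of TNF-Tg barcodes (exact permutation p = 0.1), whereas AT2-like cells made up 0.0210% and 0.0511% (p = 0.8). Within the epithelial cells, AT1-like cells were 97.1%, 94.3%, and 97.7% in WT and 100%, 55.6%, and 95.5% in TNF-Tg libraries. The groups overlapped (difference −12.7 points, exact permutation p = 0.8), and without the TNF-Tg library of 14 weeks the difference was 1.37 points in the other direction.

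Genes were compared between genotypes in UMIs summed over the cells of each library, by the quasi-likelihood F test of edgeR with Benjamini-Hochberg adjustment (FDR) over all genes tested. The TNF-Tg library of 8 weeks held 6 epithelial cells, under the limit of 10, and was not part of these fits, which compared 3 WT with 2 TNF-Tg sums. Its values are given beside the others. In AT1-like cells, 205 of 5327 genes passed an FDR of 0.05 (3.85%), with 138 higher (2.59%) and 67 lower (1.26%) in TNF-Tg mice. The count was 133, 115, and 118 without the WT library of 8, 14, or 20 weeks. It was 30 without the TNF-Tg library of 20 weeks and 432 without that of 14 weeks, but these fits hold 1 TNF-Tg sum, which is assumed to vary as the WT sums do, so that the spread comes from WT alone.

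Most of the higher genes came from the pair of cells with ciliated markers. For 100 of the 138 higher genes, over 50% of the TNF-Tg UMIs lay in these cells. The share over all genes tested was not counted. It was 0 of the 67 lower genes, which is nearly fixed, since UMIs in these cells raise the TNF-Tg sums. With these cells left out, 28 of the 138 higher and 39 of the 67 lower genes still passed. Genes of cilia stood among the 100, such as *Rsph9*, a radial spoke gene, at 3.08, 5.94, and 2.05 CPM in WT and 15.1, 67.8, and 156 in TNF-Tg libraries. *B9d1*, of the ciliary transition zone, and *Ift22*, of intraflagellar transport, were named by the same rule. Of 14 ciliary genes outside the markers, 3 were tested and 2 were higher (*Fam161a*, *Tekt1*), and both were at 0 in every library once these cells were left out. The same held for the TNF-Tg libraries with *Hp* (haptoglobin), the 1 higher gene of 15 acute-phase and host-defence genes, which was at 0 there.

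**Figure D2:**
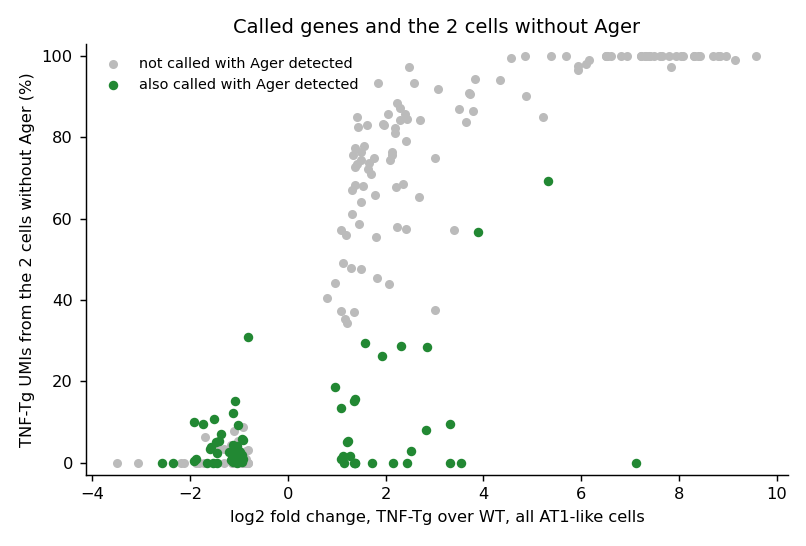
Each point is 1 of the 205 genes that passed the test in all AT1-like cells, at its log2 fold change, TNF-Tg over WT (x axis), and the percent of its TNF-Tg UMIs that came from the 2 cells without *Ager* (y axis). Green points also passed with *Ager* detected, and most grey points on the right lie above 50%, as 100 of the 138 higher genes do.

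The comparison was therefore repeated in the AT1-like cells with at least 1 *Ager* UMI, a set chosen after these values were seen. It had 33, 33, and 43 WT cells, and 9 and 20 cells from the TNF-Tg libraries of 14 and 20 weeks, beside 6 at 8 weeks. *Ager* itself, which chose the cells, was at 20390, 19570, and 21380 CPM in WT and 18720, 16700, and 16410 in TNF-Tg libraries. Of 5157 genes tested, 60 were higher (1.16%) and 67 lower (1.30%) in TNF-Tg mice. Of these 127 genes, 67 had also passed in all AT1-like cells, which is 52.8% of the 127 and 32.7% of the 205. The count was 136, 29, or 36 without the WT library of 8, 14, or 20 weeks and, with 1 TNF-Tg sum left and the spread taken from WT alone, 39 without the TNF-Tg library of 14 weeks and 11 without that of 20 weeks. At 8 weeks, whose TNF-Tg library was not fitted, 96 of the 127 genes (75.6%) lay in the same direction, against 58.0% of all genes tested. The WT library of 8 weeks was part of both comparisons. Scaling by library totals alone, in place of TMM, moved the median of all genes from 0.00 to 0.11 on the log2 scale and turned the split into 92 higher and 32 lower.

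**Figure D3:**
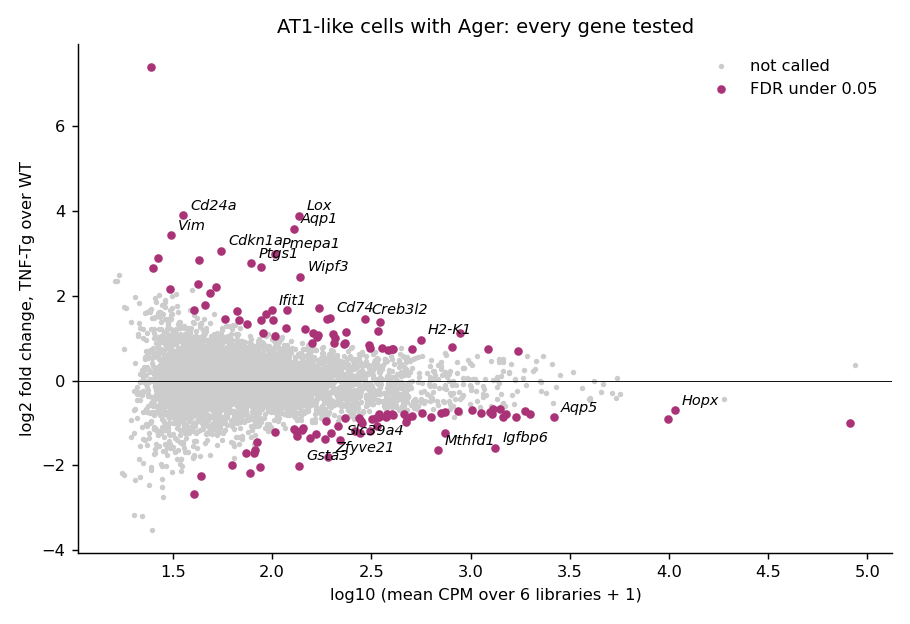
Each of the 5157 genes tested in AT1-like cells with *Ager* is a point at the log10 of its mean CPM over 6 libraries plus 1 (x axis) and its log2 fold change, TNF-Tg over WT (y axis). The 60 higher and 67 lower genes at an FDR under 0.05 are purple. The highest purple point is *Ankrd34b* at 7.38, *Cd24a*, *Lox*, and *Aqp1* lie at 3.90, 3.88, and 3.58, and *Igfbp6* and *Mthfd1* are lower at mean levels near 1000 CPM.

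Among the genes of the naming rule that rose in TNF-Tg AT1-like cells were a matrix enzyme, a water channel, and a gene of TGF-β signaling. *Lox*, which encodes lysyl oxidase, the enzyme that cross-links collagen and elastin, was at 30.8, 11.9, and 14.4 CPM in WT libraries of 8, 14, and 20 weeks and 196, 176, and 383 CPM in TNF-Tg libraries. All 3 TNF-Tg values lay above all WT values. It was found in 5 of 6, 6 of 9, and 10 of 20 TNF-Tg cells and in 9 of 33, 4 of 33, and 4 of 43 WT cells, with median depths of 10155 UMIs in WT and 10648.5 in TNF-Tg epithelial cells and no thinning. The cell richest in *Lox* gave 53.9%, 26.3%, and 33.8% of the TNF-Tg UMIs at 8, 14, and 20 weeks. The log2 fold change of *Lox* was 3.88 ± 0.37 (SE; edgeR FDR 1.17e-07). A larger fitted value was found for *Ankrd34b*, an ankyrin repeat gene outside the naming rule that was picked after its values were seen (7.38, FDR 0.000117). It was at 0 in all WT libraries and in the TNF-Tg library of 8 weeks and at 46.4 and 94.6 CPM in the later TNF-Tg libraries, so the fitted value is no bound.

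*Aqp1*, a water channel best known from endothelium and red cells (chr6:55336432-55348555, + strand, GRCm38), was at 12.3, 17.8, and 18.5 CPM in WT against 241, 325, and 149 in TNF-Tg libraries. The groups did not overlap, and 4 of 6, 6 of 9, and 8 of 20 TNF-Tg cells had a UMI, against 4 of 33, 5 of 33, and 8 of 43 WT cells. The log2 fold change was 3.58 ± 0.38 (SE; edgeR FDR 7.46e-07). Single cells weighed heavily, since 1 cell gave 77.1% of the *Aqp1* UMIs of TNF-Tg mice at 14 weeks, 62.5% at 8 weeks, and 30% at 20 weeks. Because *Aqp1* is abundant in the endothelial cells of these libraries, the endothelial markers are given beside it. Their sum in AT1-like cells was 33.8, 98.1, and 49.3 CPM in WT and 106, 93.2, and 33.5 in TNF-Tg libraries, overlapping between genotypes, and the sum in endothelial cells of WT mice at 8 weeks was 9757 CPM.

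*Pmepa1*, a TGF-β target that limits TGF-β signaling (chr2:173224458-173276533, − strand), was at 30.8, 8.91, and 22.6 CPM in WT against 181, 195, and 174 in TNF-Tg libraries (log2 2.99 ± 0.37 SE, FDR 9.64e-06). *Ptgs1*, the constitutive cyclooxygenase, was at 18.5, 8.91, and 28.8 CPM against 121, 130, and 159 CPM (2.76 ± 0.39, FDR 8.08e-05). *Wipf3*, a partner of the actin regulator WASP, was at 76.9, 20.8, and 37.0 CPM against 151, 316, and 224 CPM (2.44 ± 0.34, FDR 8.08e-05). None of these overlapped between genotypes. The naming rule takes called genes that kept 1 direction across ages, so a lack of overlap in named genes is no separate support. The richest single cell of a TNF-Tg library gave 31.4% to 58.3% of the UMIs of *Pmepa1*, 18.8% to 64.3% of those of *Ptgs1*, and 28.9% to 40% of those of *Wipf3*. *Lox*, *Aqp1*, *Pmepa1*, and *Wipf3* passed in each of the 11 alternatives that gave them an FDR, some of which hold 1 TNF-Tg sum. DESeq2 was not among these, since it gave them no FDR. Its log2 fold changes were 3.84, 3.70, 3.03, and 2.46.

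*Vim*, *Cd24a*, and *Cdkn1a* also rose, each from few UMIs. *Vim* (vimentin, the intermediate filament of mesenchymal cells) had 1, 3, and 0 UMIs in WT and 5, 5, and 9 UMIs in TNF-Tg libraries, which was 3.08, 8.91, and 0 CPM against 75.5, 46.4, and 44.8 CPM (log2 3.43 ± 0.88, FDR 0.0325). Mesenchymal markers, summed in all AT1-like cells, were at 5.94 to 12.3 CPM in WT and 15.1 to 84.7 in TNF-Tg libraries, so they moved with *Vim*. In endothelial cells of the same libraries *Vim* was at 1639, 1335, and 1481 CPM in WT and 3627, 3689, and 3486 in TNF-Tg mice. The part of RNA from either cell type in its rise was not tested. *Cd24a*, a glycoprotein of the cell surface, was at 12.3, 5.94, and 0 CPM in WT and 15.1, 65.0, and 110 in TNF-Tg libraries (3.90 ± 0.67, FDR 0.00082). *Cdkn1a*, which encodes the cell cycle inhibitor p21, was at 15.4, 26.7, and 4.11 CPM in WT and 15.1, 139, and 124 in TNF-Tg libraries (3.06 ± 0.47, FDR 0.000164). Its TNF-Tg value of 8 weeks lay within the WT range. *Mgp* (matrix Gla protein) and *Map2* (a microtubule protein) also met the naming rule, with log2 fold changes of 2.21 and 2.06. *Mgp* passed in 5 of 9 alternatives.

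A pair of regulators passed the test in AT1-like cells with *Ager* under every setting tried. *Creb3l2*, a transcription factor activated by stress of the endoplasmic reticulum, was at 142, 157, and 152 CPM in WT and 408, 445, and 443 in TNF-Tg libraries (log2 1.44 ± 0.21 SE, edgeR FDR 8.14e-05). It was found in 6 of 6, 8 of 9, and 19 of 20 TNF-Tg cells and in 21 of 33, 25 of 33, and 28 of 43 WT cells. *Zfp36l1*, which promotes the decay of mRNA, was at 218, 184, and 199 CPM in WT and 347, 566, and 568 in TNF-Tg libraries (1.38 ± 0.20, FDR 8.14e-05). Neither overlapped between genotypes, and both were chosen for this after their values were seen. So was *Ccn2* (connective tissue growth factor, a target of TGF-β and YAP), at 652, 490, and 462 CPM against 1223, 928, and 1548 CPM (1.12 ± 0.21, FDR 0.00212).

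**Figure D4:**
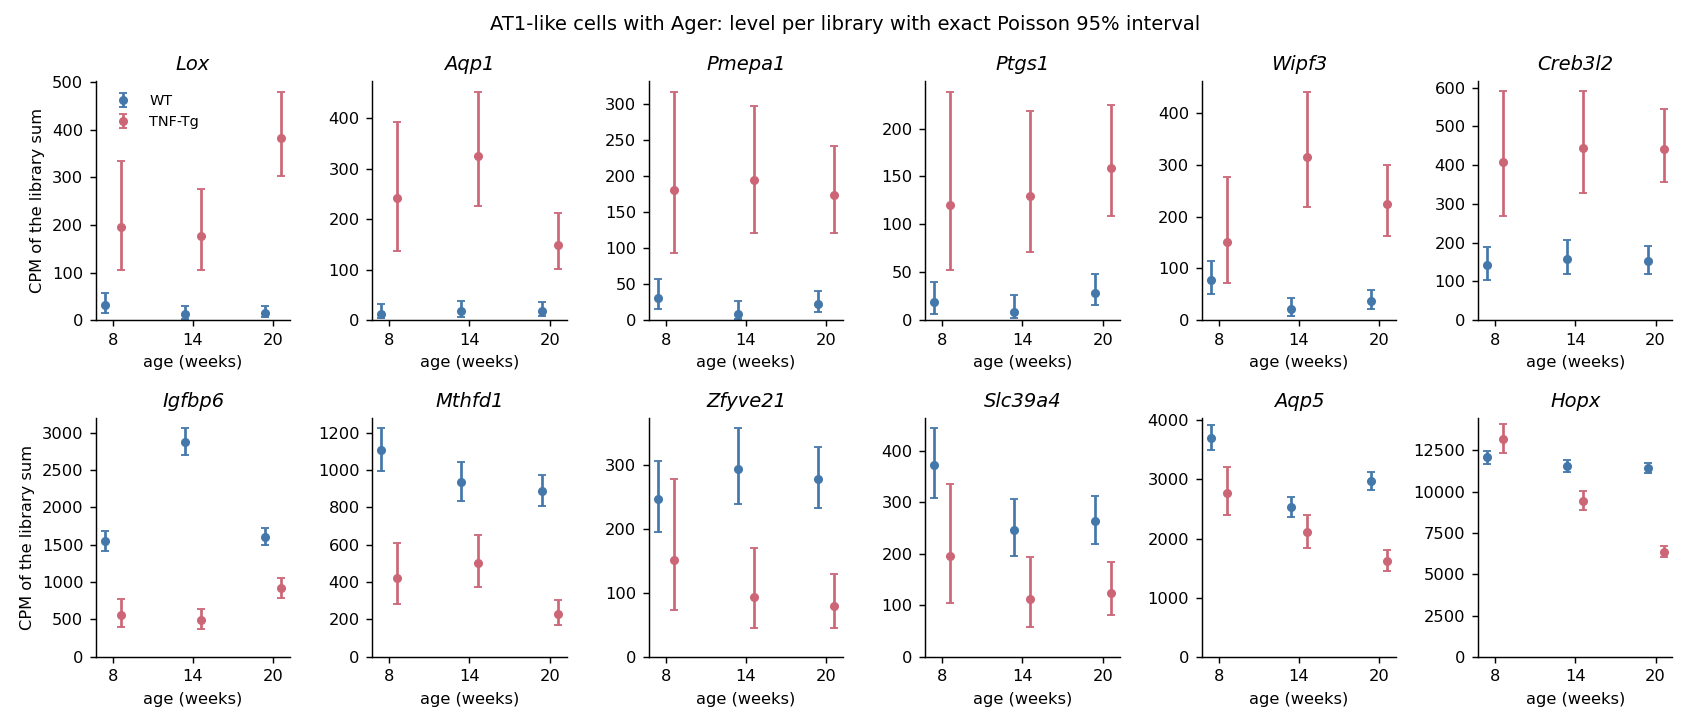
Level (CPM of the library sum, y axis) of 12 genes in AT1-like cells with *Ager* against age in weeks, WT in blue and TNF-Tg in red, with exact Poisson 95% intervals that cover counting error only. The 6 genes of the upper row were higher and the 6 of the lower row were lower in TNF-Tg libraries of 14 and 20 weeks. *Hopx* at 8 weeks was higher in the TNF-Tg library, 13176 against 12088 CPM.

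*Igfbp6* and *Mthfd1* were among the 10 lower genes of the naming rule. *Igfbp6*, whose protein binds insulin-like growth factor II (chr15:102144362-102149511, + strand, GRCm38), was at 1548, 2876, and 1603 CPM in WT and 558, 492, and 916 in TNF-Tg libraries. The groups did not overlap. The log2 fold change was −1.58 ± 0.25 (SE; edgeR FDR 0.000248). *Mthfd1*, an enzyme of folate-linked one-carbon metabolism (chr12:76255298-76319803, + strand), was at 1108, 936, and 888 CPM against 423, 501, and 229 CPM (−1.65 ± 0.24, FDR 0.000117).

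*Zfyve21*, a gene of endosomes and cell adhesion sites, was at 246, 294, and 277 CPM in WT and 151, 92.8, and 79.7 in TNF-Tg libraries (−1.80 ± 0.28, FDR 0.000172). *Slc39a4*, a zinc importer, was at 372, 247, and 263 CPM against 196, 111, and 124 CPM (−1.41 ± 0.29, FDR 0.00576). *Gsta3*, a glutathione transferase, was at 114, 321, and 238 CPM against 45.3, 9.28, and 89.6 CPM (−2.0 ± 0.43, FDR 0.00988). Each of these lay lower in every TNF-Tg than in every WT library. *Poc1a* (centrioles) had the largest fall of the naming rule, −2.67 on the log2 scale, followed by *Fbxl7* (a ubiquitin ligase subunit) at −2.26, *Ldhb* (lactate dehydrogenase) at −2.19, and *Rtraf* at −2.04, and *Ndufb6* (respiratory complex I) was at −1.46. *Fbxl7* passed in 2 of 11 and *Ndufb6* in 4 of 11 alternatives. In AT1-like cells with no endothelial marker, *Mthfd1* (−1.48, FDR 0.0242) and *Slc39a4* (−1.80, FDR 0.0242) still passed. *Igfbp6* (−1.15, FDR 0.158), *Zfyve21* (−1.16, FDR 0.266), *Gsta3* (−1.23, FDR 0.342), *Rtraf* (FDR 0.195), *Ldhb* (FDR 0.342), *Fbxl7* (FDR 0.423), and *Ndufb6* (FDR 0.429) did not, all with negative values. *Pmepa1* (2.82, FDR 0.0105) and *Wipf3* (1.90, FDR 0.0242) passed there, while *Poc1a*, *Lox*, and *Aqp1* were removed by the filter on low counts.

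Markers of the AT1 type itself moved in both directions. Of 14 AT1 markers, all tested, 1 was higher and 2 were lower in AT1-like cells with *Ager*, with a median log2 fold change of 0.11 against 0.00 over all genes. *Hopx*, a homeodomain gene of AT1 cells, was at 12088, 11529, and 11424 CPM in WT and 13176, 9456, and 6363 in TNF-Tg libraries (−0.70 ± 0.18 SE, edgeR FDR 0.0367), overlapping at 8 weeks. *Aqp5*, a water channel of the apical membrane, was at 3704, 2535, and 2967 CPM against 2777, 2107, and 1628 CPM (−0.86 ± 0.19, FDR 0.0132), also with overlap. *Spock2*, a proteoglycan of the extracellular matrix, rose from 1068, 1200, and 1403 CPM to 2370, 2292, and 2016 CPM without overlap (0.69 ± 0.17, FDR 0.0233). Of 12 AT2 markers, 3 were tested and none passed. *Malat1*, a nuclear long noncoding RNA whose share also varies with the quality of a cell, fell from 106700, 122200, and 80540 CPM to 69250, 64600, and 48460 CPM (−1.0 ± 0.21, FDR 0.00705), and the part of RNA quality in the results was not tested.

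Genes of the transitional state did not move together. Of 16 genes, 10 were tested, 2 were higher (*Cdkn1a*, *Itgb6*) and 2 lower (*Lgals3*, *Krt18*), with a median log2 fold change of 0.49. *Itgb6*, the integrin subunit that activates latent TGF-β, was at 634, 416, and 462 CPM in WT and 1404, 1086, and 851 in TNF-Tg libraries (0.80 ± 0.20 SE, edgeR FDR 0.0306). *Lgals3* (galectin-3) was at 818, 832, and 699 CPM against 468, 650, and 339 CPM (−0.86 ± 0.22, FDR 0.0332), and *Krt18* (a keratin) at 425, 621, and 429 CPM against 347, 343, and 274 CPM (−0.82 ± 0.23, FDR 0.0458). All 3 of these genes were free of overlap between genotypes. Scaled by library totals, the median of all genes lay at 0.11, so the smaller folds of this paragraph and of the lists that follow are relative to that shift.

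The lists of NF-kB targets, cytokines, acute-phase genes, and TNF receptors gave no call in AT1-like cells with *Ager*, and most of their genes were not tested. This says nothing of genes outside these lists. *Ier3*, an immediate early gene outside them, was lower in this set (log2 −0.79, edgeR FDR 0.0123). Of 14 NF-kB target genes, 6 were tested and none passed, with a median log2 fold change of −0.06. *Icam1*, an adhesion molecule of AT1 cells, was at 1908, 1400, and 1504 CPM in WT and 1675, 1726, and 1882 in TNF-Tg libraries (0.04 ± 0.18 SE, edgeR FDR 0.943). *Nfkbia*, the NF-kB inhibitor, had a log2 fold change of −0.54 (FDR 0.211) and *Sod2*, the mitochondrial superoxide dismutase, of −0.49 (FDR 0.354). Of 18 chemokines and cytokines only *Cxcl16* was tested (0.37, FDR 0.356), of 15 acute-phase and host-defence genes 1 was tested and did not pass, and of 10 TNF receptors and adaptors 2 were tested and neither passed. *Tnfrsf1a*, the main TNF receptor of epithelium, was at 12.3 to 27.7 CPM in WT and 4.98 to 46.4 in TNF-Tg libraries and was too low to be tested.

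Genes of antigen presentation and interferon response that passed were higher. Of 12 MHC class I genes, 6 were tested and 2 rose. *H2-K1*, a class I heavy chain with close paralogs, so that its counts are uncertain, was at 403, 339, and 442 CPM in WT and 528, 650, and 991 in TNF-Tg libraries (log2 0.96 ± 0.19 SE, edgeR FDR 0.00576). *B2m*, the light chain, was at 788, 1088, and 960 CPM against 1117, 1438, and 1977 CPM (0.75 ± 0.18, FDR 0.0221). Of 7 MHC class II genes only *Cd74*, the invariant chain, was tested, at 166, 80.2, and 127 CPM against 90.6, 195, and 503 CPM (1.48 ± 0.29, FDR 0.00453), with overlap at 8 weeks. Of 16 interferon-stimulated genes, 8 were tested and *Ifit1*, which binds foreign RNA, rose from 49.2, 35.7, and 53.4 CPM to 106, 232, and 115 CPM (1.65 ± 0.34, FDR 0.00668) without overlap. The list medians were 0.37 for class I and 0.32 for interferon-stimulated genes.

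In the pathways that tie AT1 cells to their neighbors, calls were few. Of 20 BMP and TGF-β pathway genes, 10 were tested and *Smad7*, an inhibitor that TGF-β and BMP induce, rose from 102, 113, and 105 CPM to 151, 204, and 284 CPM without overlap (1.13 ± 0.25 SE, edgeR FDR 0.0111), while the list median was −0.00. Of 19 basement membrane and integrin genes, 13 were tested and *Itgb6* was the only call. Of 19 signals from epithelium to endothelium and mesenchyme, 11 were tested and none passed. *Vegfa* was at 5086, 3521, and 4557 CPM in WT and 6234, 3926, and 4083 in TNF-Tg libraries (−0.26 ± 0.18, FDR 0.493), and *Pdgfa*, which acts on myofibroblasts, at 831, 541, and 943 CPM against 1419, 1114, and 1120 CPM (0.41 ± 0.20, FDR 0.276). *Pdgfa* was thus higher in every TNF-Tg than in every WT library but did not pass.

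Of 12 junction genes, 11 were tested and *Cgn* (cingulin, of tight junctions) was lower, at 277, 256, and 318 CPM in WT and 211, 158, and 174 in TNF-Tg libraries (−0.88 ± 0.24 SE, edgeR FDR 0.0427). Of 15 genes of surfactant handling 7 were tested and none passed (median log2 0.61), of 10 cell cycle genes 1 was tested and did not pass, and of 12 dissociation and stress genes 5 were tested and none passed, all 5 with a negative log2 fold change (median −0.36). Of the marker lists of other cells, no endothelial, mesothelial, mesenchymal, or erythroid gene was tested, and of 8 immune markers *Csf1r* was tested and did not pass (−0.37, FDR 0.450). Immune markers in all AT1-like cells summed to 695, 250, and 218 CPM in WT and 226, 195, and 186 in TNF-Tg libraries. *Csf1r* alone was at 268, 250, and 218 CPM in WT and 226, 195, and 149 in TNF-Tg libraries. *Lyz2* was at 428 CPM in the WT library of 8 weeks, so the sum says little of other immune markers. The hemoglobin gene *Hbb-bs* was at 19430 CPM in the WT library of 8 weeks, of which 99.4% came from 1 cell, and at most 30.2 CPM in the others.

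Promoters, here 250 bases before to 50 after the RefSeq start of a gene, were taken on GRCm38.p6 and were found for 17 of 23 genes looked up. For *Aqp1* and *Igfbp6* this window ends before the gene start given above, which is that of GENCODE. They are shown for *Ifit1*, *Aqp1*, and *Igfbp6*, the called interferon-stimulated gene and a strongly changed gene in each direction. Each was searched on both strands for TTCNNTTTC, the core of the interferon-stimulated response element, and GGANNTTCC, a core of NF-kB sites, with matches in capitals. The first was held by 8.56% and the second by 4.26% of 32851 promoters. The sequences are chr19:34640639-34640938 (+ strand) for *Ifit1*, chr6:55336049-55336348 (+ strand) for *Aqp1*, and chr15:102143936-102144235 (+ strand) for *Igfbp6*.
Ifit1: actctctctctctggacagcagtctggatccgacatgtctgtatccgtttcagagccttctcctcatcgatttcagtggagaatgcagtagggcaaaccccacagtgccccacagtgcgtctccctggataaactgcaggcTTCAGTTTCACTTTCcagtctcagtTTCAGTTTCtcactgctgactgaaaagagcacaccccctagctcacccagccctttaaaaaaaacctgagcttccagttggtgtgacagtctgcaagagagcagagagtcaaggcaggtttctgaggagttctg
Aqp1: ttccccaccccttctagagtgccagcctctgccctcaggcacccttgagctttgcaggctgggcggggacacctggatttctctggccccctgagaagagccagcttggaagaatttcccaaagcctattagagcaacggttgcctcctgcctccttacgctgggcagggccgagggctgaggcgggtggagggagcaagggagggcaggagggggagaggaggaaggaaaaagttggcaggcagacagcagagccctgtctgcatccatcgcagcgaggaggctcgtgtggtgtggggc
Igfbp6: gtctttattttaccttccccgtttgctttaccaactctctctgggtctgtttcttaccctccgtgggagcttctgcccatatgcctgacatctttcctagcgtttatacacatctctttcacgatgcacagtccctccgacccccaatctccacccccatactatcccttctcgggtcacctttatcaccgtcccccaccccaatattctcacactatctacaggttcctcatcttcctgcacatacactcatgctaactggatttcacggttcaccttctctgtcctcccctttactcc
The *Ifit1* promoter held TTCNNTTTC, with overlapping matches in the first run of capitals, and the other two held neither motif. Of the 17 promoters, 2 held TTCNNTTTC (*Ifit1*, *Ifitm3*) and 3 held GGANNTTCC (*Ifitm3*, *Lgals3*, *Mthfd1*). A match is a run of letters in this window and not a shown site.

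Whether these differences departed from those of endothelial cells was tested with the 31557 endothelial barcodes of the same libraries. No other cell class was compared, so the test cannot say whether mesenchymal, mesothelial, or immune cells shared a difference. The interaction test compared the genotype effect of the 159 epithelial cells, all 6 libraries included, with that of endothelial cells, with library as a block, and called 428 of 13858 genes (3.09%), 1.41% higher and 1.68% lower. *Aqp1* showed opposite directions. In endothelial cells it was at 1025, 1004, and 1090 CPM in WT and 603, 573, and 561 in TNF-Tg libraries, lower in every TNF-Tg library, and the epithelial effect exceeded the endothelial one by 3.87 ± 0.44 on the log2 scale (SE; edgeR FDR 6.35e-09). *Ptgs1* did so too, at 49.6, 84.5, and 61.7 CPM against 12.5, 6.76, and 10.3 CPM in endothelial cells (5.22 ± 0.44, FDR 6.37e-13). *Lox* was at 3.05 to 8.48 CPM in WT and 3.86 to 8.46 in TNF-Tg endothelial cells, overlapping, and its difference of effects was 2.71 ± 0.55 (FDR 0.00119).

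**Figure D5:**
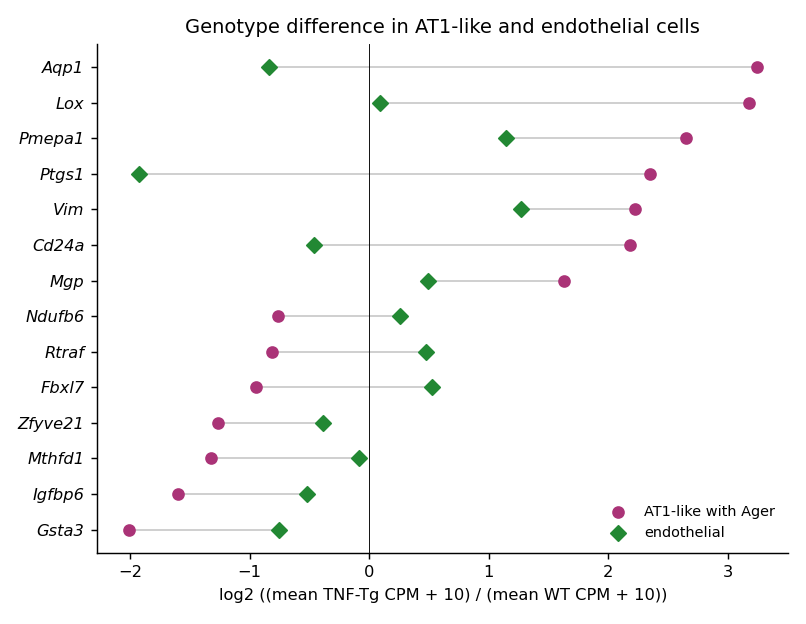
The x axis is log2 of (mean TNF-Tg CPM + 10) over (mean WT CPM + 10), means over 3 libraries each, for 14 genes named in AT1-like cells with *Ager* whose endothelial WT mean was above 5 CPM. Purple circles are AT1-like cells with *Ager* and green diamonds endothelial cells. *Aqp1* and *Ptgs1* lie on opposite sides of 0, while *Pmepa1* and *Vim* lie to the right in both.

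*Pmepa1* was higher in TNF-Tg mice in both cell classes. In endothelial cells it was at 77.8, 69.6, and 59.5 CPM in WT and 121, 180, and 193 in TNF-Tg libraries, and its difference of effects did not pass (1.19 ± 0.41 SE, edgeR FDR 0.108), though it did with only AT1-like cells with *Ager* on the epithelial side (1.52, FDR 0.00267). *Igfbp6* and *Mthfd1* were low in endothelial cells, at most 37.4 and 10.1 CPM, and their differences of effects were −1.60 (FDR 0.0137) and −1.86 (FDR 0.000221). Of the genes with the largest negative difference, *Rgcc*, a regulator of the cell cycle, was at 23.4 to 37.9 CPM in WT and 293 to 861 in TNF-Tg endothelial cells. In the epithelial cells it was at 897, 1198, and 749 CPM in WT and 906, 322, and 468 in TNF-Tg libraries, with overlap. *Hspg2* (perlecan), *Cdh13* (T-cadherin), and *Papss2* (sulfate activation) also differed mainly by a rise in endothelial cells, with differences of −4.91, −3.98, and −4.68. *Csf1r*, one of the immune markers, had a difference of −5.24 and was at 0.106 to 0.261 CPM in WT and 0.510, 2.72, and 7.51 in TNF-Tg endothelial barcodes. The immune markers summed over the same barcodes moved with it, from 3.71 to 6.69 CPM in WT to 27.4, 38.3, and 225 in TNF-Tg libraries, and their part in it was not tested.

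In the same test all 12 MHC class I genes had a positive difference and 6 were called, as were 4 of 7 MHC class II genes and 4 of 16 interferon-stimulated genes, and 3 of 14 NF-kB target genes were called lower. Such a call can come from either cell class. *Nfkbia* and *Traf1*, both called lower, did not pass in AT1-like cells with *Ager*. In endothelial cells *Nfkbia* rose from 386, 395, and 372 CPM in WT to 641, 606, and 636 in TNF-Tg libraries. *Traf1* rose there from 1.90 to 2.42 CPM in WT to 3.06 to 11.4 in TNF-Tg libraries. *H2-K1*, called higher, fell there from 2257, 2226, and 2218 CPM to 2155, 1543, and 1453 CPM. With only AT1-like cells with *Ager* on the epithelial side, the test called 796 of 13662 genes (5.83%), 222 higher (1.62%) and 574 lower (4.2%). There, 9 of the 12 class I genes were positive and 2 were called, 1 of 7 class II genes and 2 of 16 interferon-stimulated genes were called higher, and 3 NF-kB target genes lower. The 8 AT2-like cells of the TNF-Tg library of 14 weeks were part of the first set and not of the second.

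In all epithelial cells together, 84 of 5515 genes passed (1.52%), 49 higher and 35 lower, and 75 of the 84 had also passed in AT1-like cells. It was 0 without the WT library of 8 or 14 weeks (edgeR, with 656 and 703 genes at an unadjusted p under 0.05, DESeq2 not run), 3 without that of 20 weeks, and 339 or 236 without the TNF-Tg library of 14 or 20 weeks, where 1 TNF-Tg sum is left and WT alone gives the spread. Among genes named here and not above, *Ifitm3*, an interferon-induced membrane protein, was at 11.3, 18.4, and 17.9 CPM in WT and 30.2, 159, and 67.9 in TNF-Tg libraries (log2 2.79, FDR 0.0269). Of its AT1-like TNF-Tg UMIs, 67.7% came from the cells without *Ager*, and in the set with *Ager* it was at 9.23 to 17.8 CPM in WT and 30.2, 55.7, and 9.96 in TNF-Tg libraries, overlapping and too low to be tested. *Lgals3bp*, a ligand of galectins, was at 17.0, 18.4, and 9.96 CPM against 60.4, 91.3, and 85.8 CPM (2.55, FDR 0.0184). With *Ager* detected its call was lost (1.29, FDR 0.283), and 57.5% of its AT1-like TNF-Tg UMIs came from the cells without *Ager*. *Plscr2* (a phospholipid scramblase), *Tspan13*, and *Ier3* (an immediate early gene) were lower, with log2 fold changes of −1.75, −1.50, and −1.40. All 12 AT2 markers were tested in this set and none passed, though 11 were positive.

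The AT2-like cells were too few for a test, and their values are a description. *Sftpc* was at 155500 CPM in the 1 cell of the WT library of 8 weeks, 148520 CPM in the 2 cells of 14 weeks, 159130 CPM in the 8 TNF-Tg cells of 14 weeks, and 166740 CPM in the 1 TNF-Tg cell of 20 weeks. The remaining WT cell is the one with *Scgb1a1* described above and is left out here. *Lcn2* (lipocalin-2, a host-defence protein) was at 2180 and 267 CPM in WT and 6629 and 1642 in TNF-Tg cells, and *H2-Ab1*, an MHC class II chain, at 70.3 and 357 CPM in WT and 1016 and 547 in TNF-Tg cells. *Cd74* was at 1301 and 3276 CPM against 5373 and 3284 CPM. The *Lcn2* values of the genotypes overlapped. Among other genes looked up, *Chil1* was at 1582 and 1649 CPM in WT and 5583 and 3193 in TNF-Tg cells. *Lyz2* (41037 and 16270 CPM against 28175 and 6476), *Scd1* (9705 and 17406 against 13534 and 10855), and *Fabp5* (1055 and 2518 against 3684 and 91.2) overlapped.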

How the data were processed

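UMI counts per gene and barcode were deposited by the authors as whole numbers without normalization, as filtered matrices that list 32285 genes. Per the file headers, the 8-week files came from Cell Ranger 5.0.0 and the later ones from 6.0.1, alike in either genotype (the submitters' processing notes name 5.0.0 and mm10). Groups were taken from the sample labels. All deposited barcodes were the starting point, 212 of which occurred in more than 1 library, and no column of another sample was used. Scrublet (scanpy 1.11.5, Python 3.11.15) marked doublets, which were kept except in 1 alternative.

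Epithelial cells were clustered (Leiden, resolution 1, 15 neighbours, 10 principal components) on 35 of 63 lineage markers. A cluster was named when at least 3 markers of a class were detected in 10% of its cells at a log2 fold of 2 over other barcodes. UMIs were summed per library with at least 10 cells and fitted in edgeR 4.0.16 (R 4.3.3; filterByExpr, TMM, quasi-likelihood F test, Benjamini-Hochberg adjustment, FDR under 0.05). CPM scales the counts of a sum to a total of 1000000. Shares were compared by 2-sided exact permutation tests (scipy 1.17.1). The fits were tested on simulated data.

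The epithelial cells and all gene lists were chosen with earlier results of these data known. Named genes were, in each test, the 10 of largest fold in each direction (5 in the interaction) among calls that reached 50 CPM on average in 1 genotype and kept 1 direction across ages, the called genes of each list, and, where none was called, its members of highest CPM. A gene that met this rule is not reported here. Alternatives were DESeq2 1.42.0, age as a block, other scalings, filters, thinning, marker limits, and each library left out. The set with *Ager*, the fits with the TNF-Tg library of 8 weeks, and other scalings and thinning of AT1-like sums were added after the data were seen. Gene positions are those of GENCODE vM21 on GRCm38.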

Additional observations from a re-analysis of the deposited data

Results flagged for a closer look

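These genes are listed because the genotype effect in the epithelial cells differed from that in endothelial cells by the interaction test (edgeR, FDR under 0.05). Values are the epithelial minus the endothelial log2 effect of TNF-Tg over WT. Among genes named as higher in the epithelial cells the difference was positive for *Cd24a* (5.11), *Lox* (2.71), *Aqp1* (3.87), *Ptgs1* (5.22), *Wipf3* (2.14), and *Cdkn1a* (2.75). Among genes named as lower it was negative for *Igfbp6* (−1.60), *Mthfd1* (−1.86), *Zfyve21* (−1.43), *Slc39a4* (−3.68), *Fbxl7* (−2.81), *Rtraf* (−1.32), *Lgals3* (−1.86), *Plscr2* (−1.89), and *2610001J05Rik* (−1.51). *Ifitm3* (2.45), *Lgals3bp* (2.0), *1700094D03Rik* (5.32), *Elof1* (1.52), and *Riiad1* (13.12) differed too. All values so far were taken with the pair of cells with ciliated markers included. Some of these genes were near the floor in endothelial barcodes, such as *Wipf3* at 0.391 to 1.76 CPM. The AT1 marker *Hopx* had a difference of 1.73 (FDR 0.00271), though it was lower in TNF-Tg AT1-like cells. In endothelial barcodes it was at 611, 470, and 534 CPM in WT and 126, 69.5, and 55.7 in TNF-Tg libraries. The part of free AT1 RNA in these differences was not tested. With only AT1-like cells with *Ager* the difference was 0.83 for *Ifitm3* (FDR 0.623), 0.99 for *Lgals3bp* (FDR 0.379), 1.44 for *1700094D03Rik* (FDR 0.836), and −0.20 for *Elof1* (FDR 0.969), and *Riiad1* was not tested. For *Cd24a* the difference in that set was 4.23 (FDR 4.90e-11). Of the AT1-like TNF-Tg UMIs, 67.7% for *Ifitm3*, 57.5% for *Lgals3bp*, 69.4% for *Cd24a*, and 56.8% for *Cdkn1a* came from the cells without *Ager*. *Riiad1* was at 0 in all WT epithelial sums, so its fitted value is no bound. *Itih4* (8.76) and *Apoc1* (6.51) were highest in the TNF-Tg library of 14 weeks, at 842 and 179 CPM, the library with 8 AT2-like cells. *Cyp4f39* (5.99) and *Esrp1* (5.63) complete the genes of largest positive difference. Those of largest negative difference were *Rgcc* (−5.33), *Csf1r* (−5.24), *Hspg2* (−4.91), *Papss2* (−4.68), and *Cdh13* (−3.98). *Csf1r* is an immune marker, and such markers summed to 3.71 to 6.69 CPM in WT and 27.4 to 225 CPM in TNF-Tg endothelial barcodes.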

How the results depend on the processing

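The lower epithelial share kept its direction under every alternative, from −0.443 points (at most 5% mitochondrial UMIs) to −0.297 (at least 4 markers), and from −0.380 to −0.252 with 1 library left out, all with an exact p of 0.1 or above. Every alternative drew on the same 6 epithelial markers, so none could show epithelial cells, such as airway cells, that these markers miss. The share of AT1-like cells ranged from −20.9 to 1.37 points with 1 library left out and that of AT2-like cells from −1.37 to 20.9, both changing sign without the TNF-Tg library of 14 weeks. Counts of called genes moved. In all epithelial cells the 84 calls became 700 without a filter on low counts, 202 with age as a block, 52 by totals only, 36 after thinning, 3 with at least 4 markers, 2 with no endothelial marker, 7 with the TNF-Tg library of 8 weeks, 15 with that library and age as a block, and 0 to 339 with 1 library left out. In AT1-like cells the 205 became 98 in DESeq2, 563 without a filter, 42 after thinning, 8 with no endothelial marker, 127 with *Ager* detected, 47 with the TNF-Tg library of 8 weeks, 67 with that library and the block, and 30 to 432 with 1 library left out. With *Ager* detected the 127 became 54 in DESeq2, 194 with age as a block, 72 with the TNF-Tg library of 8 weeks, and 11 to 136 with 1 library left out. The 428 interaction calls became 196 in DESeq2, 166 with endothelial sums thinned, 763 with AT1-like cells only, 796 with only those with *Ager*, 893 with AT1-like sums of at least 10 cells, and 276 to 721 with 1 library left out. The cause of these moves was not tested. By totals only, the share of higher calls went from 67.3% to 81.8% in AT1-like cells and from 58.3% to 84.6% in all epithelial cells. Of the single genes named, the interaction of *Apoc1* alone reversed (−5.42 to 16.4 with 1 library left out, lowest without the TNF-Tg library of 14 weeks), and with *Ager* detected 162 values stayed past the threshold and 47 did not. The libraries pair by age, and with age as a block AT1-like cells gave 192 calls, beside the 202 and 194 above. Without a TNF-Tg library, the fits within the epithelial cells hold 1 TNF-Tg sum, assumed to vary like WT. Depth limits all of this to well-detected genes, since the smallest AT1-like sums fitted held 118014 UMIs, 107758 with *Ager* detected, and 66255 where the TNF-Tg library of 8 weeks was added.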
